A study of Sus scrofa with 26 samples.

Results

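Collagens are the main structural proteins of the extracellular matrix. The collagen chains measured here comprise every gene of the array whose symbol is COL, a number, A and a number, each such gene encoding 1 chain of a triple helix. Of the 12204 genes named on the array, 37 were collagen chains, and of its 60305 probes, 122 measured them. They were grouped into 10 fibrillar chains, 5 basement membrane chains (the type IV collagens) and 22 other chains. RNA of the subcutaneous adipose tissue (SCAT) of 26 castrated male pigs was hybridised to one-colour arrays, 1 array per pig. The pigs were Creole, Large White (LW) or the cross of these breeds (F1), and each breed was sampled at thermoneutrality (TN), which was 24 °C, and under heat stress (HS). There were 3 Creole TN, 4 F1 TN, 4 LW TN and 5 HS pigs of each breed. The labels give 30 °C for HS, while the series text gives 32 °C for 5 days. The pigs entered the climatic room at 11 weeks of age, and TN pigs were slaughtered before the heat period, so the temperature, the age and the day of slaughter cannot be told apart. According to the paper, each pen was slaughtered at a single temperature and feed intake fell in the heat. Pen and feed intake thus cannot be told apart from temperature either. The labels do not tell littermates or pens apart, and p-values measure the spread between these animals. Pigs of the same litter or pen were treated as independent, which can make p-values too small.

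Each collagen molecule is a triple helix of 3 chains that repeat glycine followed by a pair of other residues, because only glycine fits in the centre of the helix. Fibrillar collagens of types I, III, V and XI pack into the cable-like fibrils of the connective tissue, type IV forms the sheet under endothelial cells and around each adipocyte, and type VI forms beaded filaments that surround adipocytes. The remaining members decorate fibrils (types XII, XIV, XVI, XXI), form hexagonal networks (type VIII), anchor the epidermis to the dermis (type VII) or span the membrane (types XIII, XVII). In adipose tissue most fibrillar collagen is made by fibroblasts and preadipocytes, and the chains are folded with prolyl hydroxylases before they are secreted.

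A collagen probe can be recognised by eye when it lies in the triple helix. Among the 122 collagen probes, 13 held at least 5 glycine codons (GGN) spaced 9 bases apart, on one strand or the other, compared with 25 (0.0415%) of all 60305 probes. The 10 collagen probes with the repeat on the printed strand are complementary to the labelled copy of the messenger RNA. The following deposited probe sequences of 60 bases are shown because they measure the chains on which the results turn, with the glycine codons of the repeat in capitals, 5′ to 3′.
COL1A2: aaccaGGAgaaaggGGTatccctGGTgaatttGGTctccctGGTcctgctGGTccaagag
COL4A1: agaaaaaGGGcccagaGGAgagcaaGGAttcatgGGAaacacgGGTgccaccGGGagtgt
COL6A1: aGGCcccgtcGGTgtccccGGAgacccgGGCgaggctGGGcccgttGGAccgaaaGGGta
COL7A1: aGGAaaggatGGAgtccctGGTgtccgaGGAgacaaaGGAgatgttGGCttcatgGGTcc
COL8A1: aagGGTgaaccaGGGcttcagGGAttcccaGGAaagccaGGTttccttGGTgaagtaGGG
COL11A1: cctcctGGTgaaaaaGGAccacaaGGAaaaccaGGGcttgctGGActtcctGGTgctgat
COL11A2: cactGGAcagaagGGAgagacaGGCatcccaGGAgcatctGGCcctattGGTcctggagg
COL21A1: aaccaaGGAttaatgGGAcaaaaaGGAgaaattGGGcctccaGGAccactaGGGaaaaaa
On these 8 probes the glycine codons recur at the same spacing whichever chain is measured, while the bases between them differ from chain to chain. The other 3 probes, of COL1A2, COL9A1 and COL11A1, carried the repeat on the reverse complement only, and the single COL9A1 probe therefore reads the strand opposite to the messenger RNA. The COL1A2 probe of this kind is given below as its reverse complement.
COL1A2 (opposite strand): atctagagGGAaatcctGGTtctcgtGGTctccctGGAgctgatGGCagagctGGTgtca
In 5 genes (COL4A1, COL6A2, COL6A3, COL14A1, COL18A1), 2 probes had the same sequence, so their values are repeats of one measurement.

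Values are log2 of the quantile-normalized median intensity of a probe, and a difference of 1 is a doubling of intensity. The intensities were not background-corrected, so on dim probes a difference can be smaller than that of the RNA. Levels of different probes were not set against each other, since probes differ in brightness. Probes had to be well above background on at least 8 of the 26 arrays. This retained 31 collagen genes (10 fibrillar, 3 basement membrane, 18 other) and 110 of their probes, of 10495 genes and 44703 probes in all. The 6 genes left out were COL4A3 and COL4A4, which form the network of the kidney filter, and COL13A1, COL19A1, COL22A1 and COL28A1. Their probes were well above background on at most 6 arrays (COL13A1), and on none for COL4A3, COL19A1 and COL28A1. Each gene was represented by its retained probe with the highest mean level. The arrays had from 68.51% to 76.58% of spots well above background and no saturated spot, and adiponectin (ADIPOQ), which defines adipocytes, had a level of 17.32 ± 0.13 in TN (SD, n = 11) and 17.49 ± 0.13 in HS pigs (n = 15), itself called higher in HS (0.16 ± 0.05, limma adjusted p = 0.0384).

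The first question was which chains differed between HS and TN pigs over the 3 breeds. At an adjusted p under 0.05 in limma, 8 of the 31 genes (25.8%) were differentially expressed, all of them higher in HS. Over all genes tested, 12.6% were called, 4.91% higher and 7.68% lower. The 8 genes were COL1A1, COL1A2 and COL3A1 among the fibrillar chains, and COL6A3, COL7A1, COL8A2, COL12A1 and COL14A1 among the other chains. No basement membrane chain was called, of 3 tested. The difference was positive for 23 of 31 genes, with a median of 0.20 on the log2 scale against -0.004 for all genes, and 14 genes had an unadjusted p under 0.05, against 28.1% of all genes. At the level of probes, 27 of 110 (24.5%) were called, 26 higher and 1 lower, compared with 12.2% of all probes (5.17% higher and 7.02% lower). In this bulk tissue, more cells of a type and more RNA per cell cannot be told apart.

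**Figure D1:**
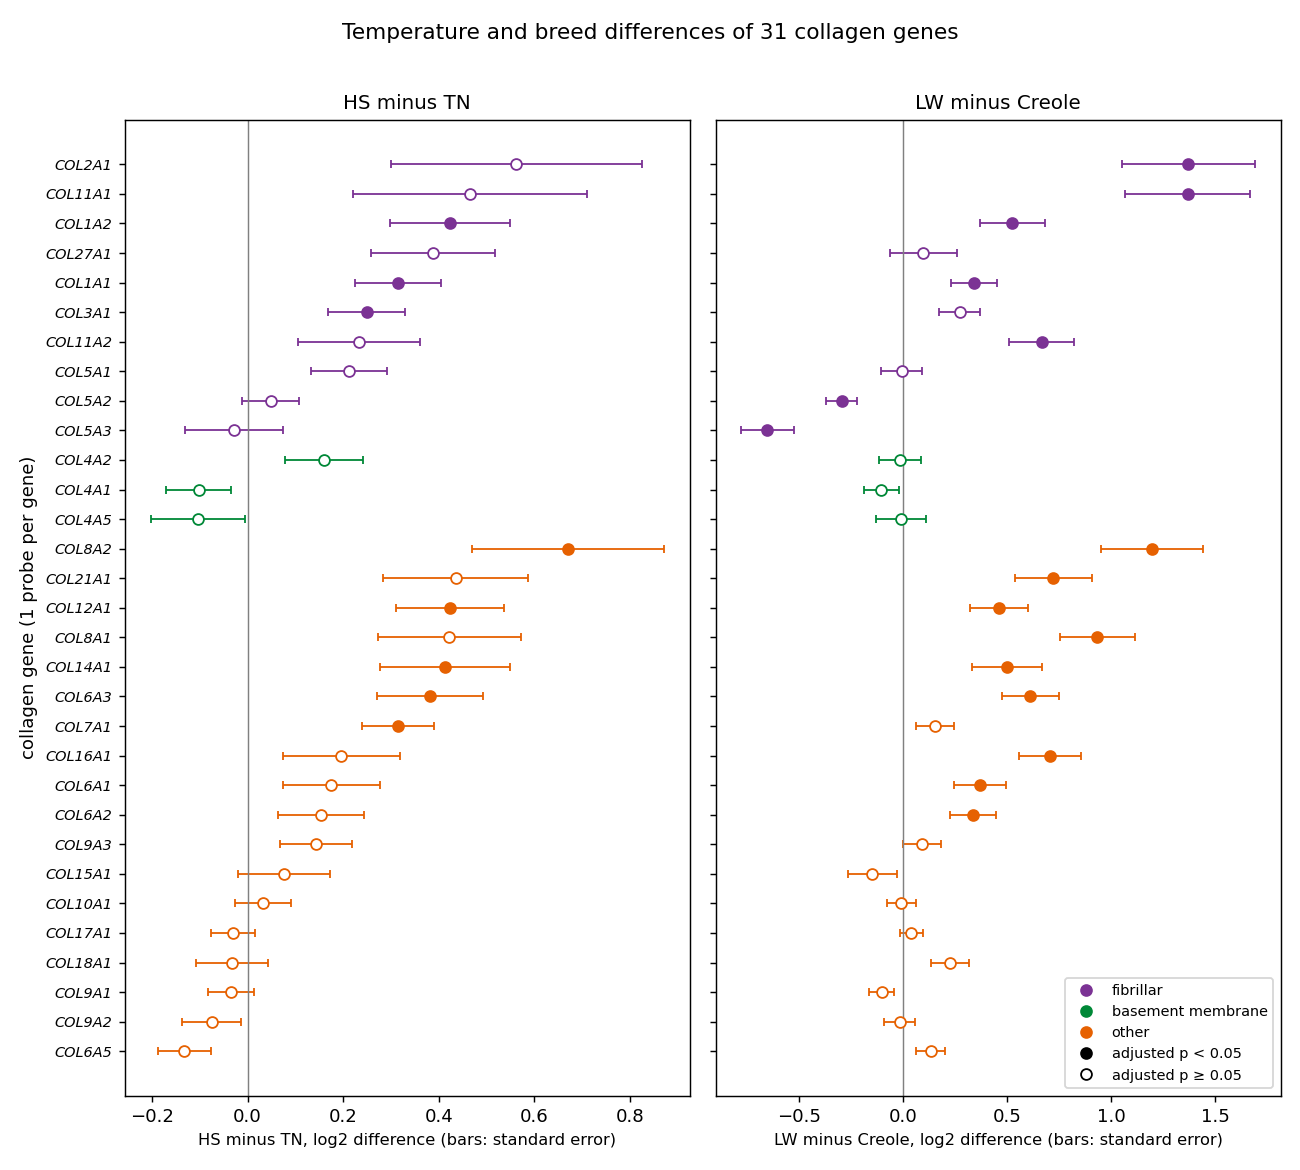
Differences between HS and TN (left) and between LW and Creole (right) for 31 collagen genes, 1 probe per gene, on the log2 scale with standard errors; filled points passed the threshold. In the left panel the 8 filled points lie to the right of 0 and the basement membrane chains near it, and in the right panel 14 filled points lie to the right and COL5A2 and COL5A3 to the left.

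The chains of the major fibrils, types I and III, were each called, although with processed signals scaled to the 75th percentile none of COL1A1, COL1A2 and COL3A1 passed. COL1A1 (chr12:26379087-26397180 in Sscrofa11.1, RefSeq) and COL1A2 (chr9:74174484-74210407) encode the chains of type I collagen, of which the first is present in 2 copies and the second in 1 copy. COL1A1 levels in TN were 17.07, 16.51 and 17.33 for Creole, 16.91, 17.40, 16.91 and 17.07 for F1 and 17.77, 17.33, 17.51 and 17.33 for LW pigs. Under HS they were 17.44, 17.59, 17.18, 17.17 and 17.76 for Creole, 17.23, 17.32, 17.48, 17.53 and 17.51 for F1 and 17.48, 17.89, 17.83, 17.70 and 17.38 for LW pigs. The values of both temperatures overlapped, and 13 of the 15 HS pigs lay above the TN mean of their own breed. The lowest value, 16.51, belonged to Creole TN pig 2. The HS minus TN difference of COL1A1 was 0.31 ± 0.09 (SE, limma adjusted p = 0.0235).

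COL1A2 ranged from 15.89 to 17.67 in TN and from 16.77 to 17.95 in HS pigs, with medians of 16.94 and 17.30. The TN and HS means of COL1A2 were 16.58 ± 0.62 and 17.16 ± 0.30 for Creole, 16.75 ± 0.36 and 17.14 ± 0.21 for F1, and 17.25 ± 0.38 and 17.59 ± 0.27 for LW pigs (SD, n = 3 and 5, 4 and 5, 4 and 5). All 15 HS pigs lay above the TN mean of their breed, and the difference was 0.42 ± 0.13 (adjusted p = 0.0282). All 5 probes of COL1A2 gave a positive difference (0.27 to 0.66) and 4 were called. Of the COL1A2 probes printed above, that with the repeat on the printed strand gave 0.48 ± 0.14 (adjusted p = 0.0237), and the opposite-strand probe gave 0.27 ± 0.15 (adjusted p = 0.254).

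COL3A1 (chr15:93556914-93595678), the single chain of type III collagen, had TN and HS means of 17.00 ± 0.38 and 17.36 ± 0.21 for Creole, 17.18 ± 0.17 and 17.34 ± 0.15 for F1, and 17.34 ± 0.17 and 17.59 ± 0.24 for LW pigs. Its difference of 0.25 ± 0.08 passed the threshold (adjusted p = 0.0443) on both of its probes. Without a filter on dim probes the COL3A1 call was lost. COL5A1 encodes a chain of type V collagen, which nucleates the type I fibril, and its difference of 0.21 ± 0.08 did not pass (adjusted p = 0.0842). Nor did COL5A2, at 0.05 ± 0.06, or COL5A3, at -0.03 ± 0.10. COL27A1, a fibrillar chain best known in cartilage, lay just outside the threshold at 0.39 ± 0.13 (adjusted p = 0.0502), with 11 of 15 HS pigs above the TN mean of their breed. Among the called fibrillar genes, COL3A1 had the smallest difference, and it is also the one nearest to the threshold.

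COL6A3 (chr15:137011549-137103687) encodes the largest chain of type VI collagen and the source of the fragment endotrophin. Its TN and HS means were 13.87 ± 0.22 and 14.51 ± 0.42 for Creole, 14.17 ± 0.27 and 14.49 ± 0.21 for F1, and 14.73 ± 0.22 and 14.95 ± 0.30 for LW pigs, and 14 of 15 HS pigs lay above the TN mean of their breed. The difference was 0.38 ± 0.11 (adjusted p = 0.0254), all 10 probes were positive and 6 were called. With processed signals scaled to the 75th percentile COL6A3 was not called (adjusted p = 0.0639). The partner chains of the same molecule did not pass the threshold. COL6A1 differed by 0.17 ± 0.10 (adjusted p = 0.276) and COL6A2 by 0.15 ± 0.09 (adjusted p = 0.285). For COL6A1 the TN and HS means were 16.34 ± 0.29 and 16.54 ± 0.32 for Creole, 16.24 ± 0.27 and 16.53 ± 0.15 for F1, and 16.80 ± 0.25 and 16.84 ± 0.33 for LW pigs. For COL6A2 they were 9.23 ± 0.33 and 9.26 ± 0.14 for Creole, 9.16 ± 0.29 and 9.40 ± 0.24 for F1, and 9.48 ± 0.21 and 9.65 ± 0.23 for LW pigs. The difference between COL6A3 and its partners was not tested. COL6A5, measured by 1 probe under its older symbol COL29A1, had a difference of -0.13 ± 0.06 (adjusted p = 0.126).

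Of 4 chains that sit on the surface of fibrils (COL12A1, COL14A1, COL16A1 and COL21A1), COL12A1 and COL14A1 were called higher in HS. COL14A1 (chr4:18690197-18925111) had TN levels with a lowest value, median and highest value of 12.21, 13.54 and 14.07, against 13.41, 13.91 and 14.52 in HS. Its means were 13.09 ± 0.76 and 13.84 ± 0.27 for Creole, 13.38 ± 0.38 and 13.63 ± 0.25 for F1, and 13.88 ± 0.24 and 14.16 ± 0.27 for LW pigs. The difference was 0.41 ± 0.14 (adjusted p = 0.0476). All 12 probes of COL14A1 were positive, from 0.19 to 0.41, and 5 were called. The COL14A1 call was lost with normexp background correction (adjusted p = 0.0575 in limma), with processed signals scaled to the 75th percentile, without a filter on dim probes and with the mean of its probes. COL12A1 (chr1:90744409-90875127), the close relative of COL14A1, had means of 10.50 ± 0.45 and 11.03 ± 0.27 for Creole, 10.64 ± 0.31 and 10.99 ± 0.17 for F1, and 11.04 ± 0.32 and 11.45 ± 0.36 for LW pigs. It differed by 0.42 ± 0.11 (adjusted p = 0.0155), with 14 of 15 HS pigs above the TN mean of their breed. Its 2 probes disagreed, as the other gave -0.13 ± 0.17 (adjusted p = 0.655). That other probe, unlike the representative one, was not well above background on all 26 arrays. With the mean of both probes COL12A1 was not called (0.15, adjusted p = 0.44). COL16A1 (0.20 ± 0.12, adjusted p = 0.315) and COL21A1 (0.43 ± 0.15, adjusted p = 0.0593) did not pass.

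COL8A2 (chr6:92246047-92272046), a chain of the hexagonal networks, had the largest difference among the 8 called genes. The levels in TN were 7.48, 6.93 and 8.44 for Creole, 7.87, 8.09, 7.69 and 7.87 for F1 and 9.49, 8.45, 8.79 and 8.38 for LW pigs. In HS the levels reached 8.04, 8.29, 7.88, 7.84 and 8.98 for Creole, 8.54, 7.99, 9.29, 8.77 and 8.61 for F1 and 8.84, 10.47, 9.76, 9.62 and 8.43 for LW pigs. Most of the HS values lay within the TN range, and only 3 of 15 lay above all TN values. The difference was 0.67 ± 0.20 (adjusted p = 0.0295), and no second probe measured the gene. COL8A1, whose product forms the same kind of network, had a difference of 0.42 ± 0.15 on its brightest probe (adjusted p = 0.063). The COL8A1 probe printed above gave 0.28 ± 0.08 and was called (adjusted p = 0.0308).

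COL7A1 (chr13:31262750-31295112), the chain of the anchoring fibrils, had the smallest adjusted p among the probes that represent the 31 genes, whereas over all 110 collagen probes a second probe of COL1A2 had a smaller one (0.66 ± 0.15, limma adjusted p = 0.00665). At TN, Creole pigs had 9.81, 10.24 and 10.18, F1 pigs 10.09, 10.24, 10.13 and 9.92 and LW pigs 10.62, 10.07, 10.13 and 10.22. At HS, Creole pigs had 10.32, 10.64, 10.36, 10.12 and 10.48, F1 pigs 10.30, 10.34, 10.86, 10.35 and 10.52 and LW pigs 10.49, 10.71, 10.58, 10.49 and 10.32. Each of the 15 HS pigs lay above the TN mean of its breed, although the ranges overlapped and the highest TN value, 10.62, belonged to an LW pig. The difference was 0.31 ± 0.07 (adjusted p = 0.0081). All 5 probes were positive and 3 were called, including the one printed above at 0.21 ± 0.06 (adjusted p = 0.0306). The keratinocyte markers, of which 3 of 7 were tested and none was called, had a mean level per gene from -1.47 to 2.11 in TN and from -1.63 to 3.00 in HS, relative to their mean over the arrays. Their part in the COL7A1 result was not tested. COL17A1, which keratinocytes also make, had a second probe at 0.36 ± 0.19 (adjusted p = 0.222), and its representative probe had a difference of -0.03 ± 0.05.

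**Figure D2:**
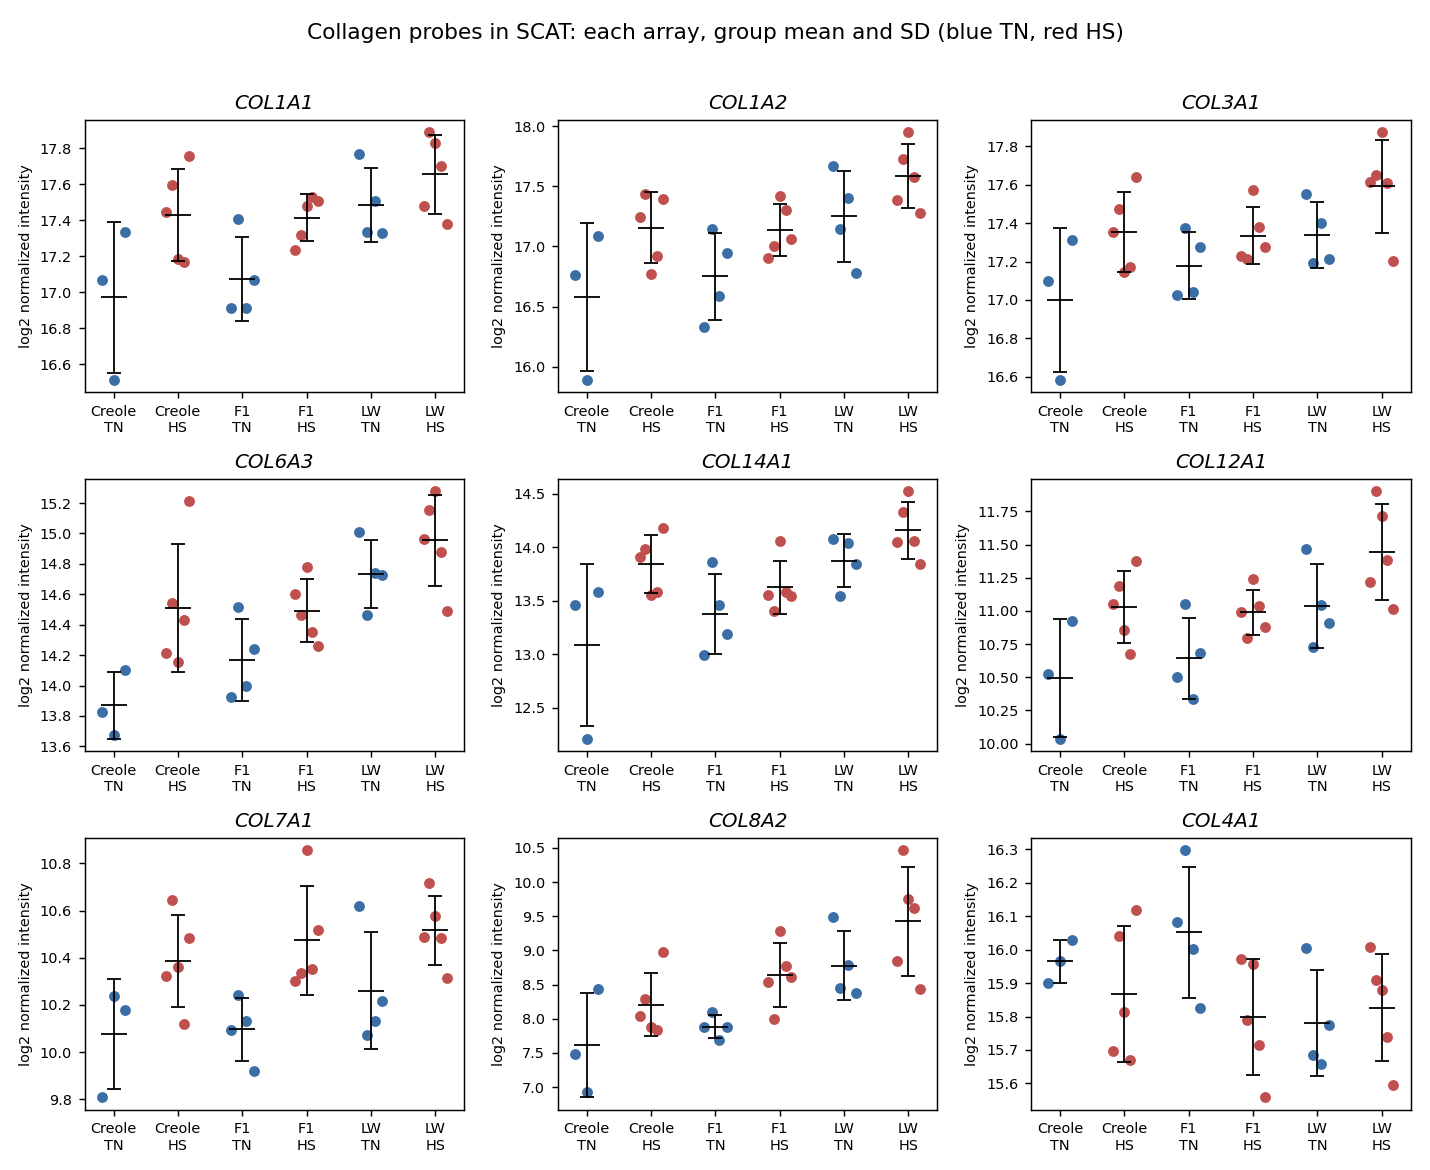
Levels of 9 collagen genes on each array, as log2 normalized intensity, by breed and temperature (blue TN, red HS), with the group mean and SD in black. In the 8 genes called in the comparison of HS and TN, the HS mean is above the TN mean in each breed, and in COL4A1 it is above in LW and below in Creole and F1.

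The basement membrane chains had differences of either sign, none of them called. COL4A1 (chr11:76858332-76997409) and COL4A2 (chr11:76996885-77161617) lie head to head and encode the chains of the most widespread type IV molecule. COL4A1 had TN and HS means of 15.96 ± 0.07 and 15.87 ± 0.20 for Creole, 16.05 ± 0.20 and 15.80 ± 0.17 for F1, and 15.78 ± 0.16 and 15.83 ± 0.16 for LW pigs, and differed by -0.10 ± 0.07 (adjusted p = 0.358). Of the 7 COL4A1 probes 6 were negative, and 1 of them was called lower, at -0.20 ± 0.06 (adjusted p = 0.0359). The other probe with the same sequence gave -0.14 ± 0.07 and was not called (adjusted p = 0.207). The triple-helix probe printed above was the only positive one, at 0.28 ± 0.10 (adjusted p = 0.058). With processed signals scaled to the 75th percentile, COL4A1 itself was called lower (-0.24). COL4A2 had means of 15.35 ± 0.17 and 15.38 ± 0.27 for Creole, 15.18 ± 0.07 and 15.27 ± 0.26 for F1, and 15.16 ± 0.16 and 15.49 ± 0.21 for LW pigs, with a difference of 0.16 ± 0.08 (adjusted p = 0.212). COL4A5, on the X chromosome, differed by -0.10 ± 0.10. Of the 12 probes of basement membrane chains 3 were positive, compared with 32 of 35 probes of fibrillar chains and 53 of 63 probes of the other chains. Probes of a gene are not independent, and 7 of these 12 measured COL4A1. By gene, 1 of 3 basement membrane, 9 of 10 fibrillar and 13 of 18 other chains were positive. Within LW pigs, all 3 basement membrane genes and 7 of their 12 probes were positive.

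**Figure D3:**
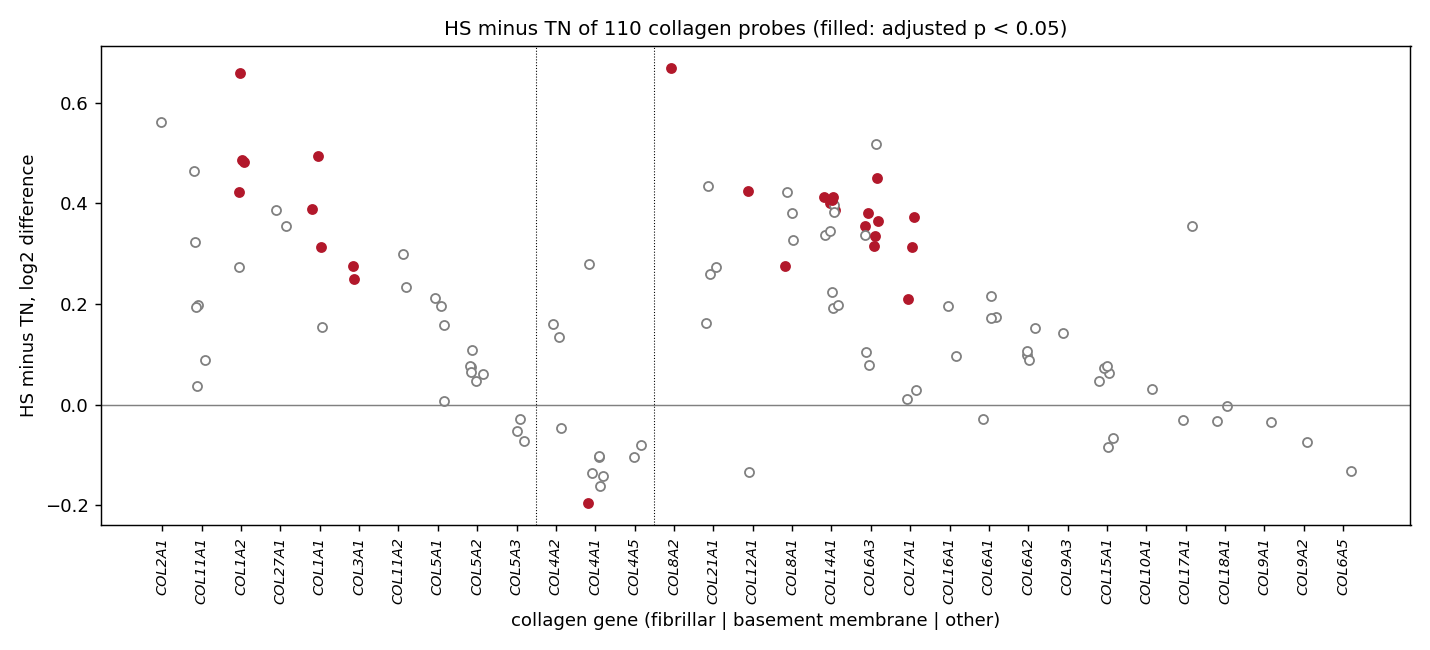
HS minus TN difference of each of the 110 collagen probes on the log2 scale, by gene, with dotted lines between fibrillar, basement membrane and other chains; filled points passed the threshold. The 12 COL14A1 probes and the 10 COL6A3 probes all lie above 0, whereas 6 of 7 COL4A1 probes lie below it.

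Small differences, none of them called, were found in several chains known from cartilage and in the vascular chains COL15A1 and COL18A1. COL9A1, COL9A2 and COL10A1 had differences of -0.03 ± 0.05, -0.07 ± 0.06 and 0.03 ± 0.06. As stated above, the single COL9A1 probe reads the strand opposite to the messenger RNA. COL9A2 and COL10A1 were well above background on 11 and 16 of the 26 arrays. COL15A1 differed by 0.08 ± 0.10 and COL18A1, the precursor of endostatin, by -0.03 ± 0.07. COL2A1 and COL11A1, the main chains of cartilage fibrils, had large but scattered differences of 0.56 ± 0.26 (adjusted p = 0.165) and 0.47 ± 0.24 (adjusted p = 0.227).

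The count of called genes depended on single pigs. It was 3 (COL1A1, COL7A1 and COL12A1) without Creole TN pig 2. It was 5 without each of F1 TN pig 1, F1 TN pig 3, F1 HS pig 3 and LW TN pig 2, and 12 without LW HS pig 5. On their representative probes, COL1A1, COL7A1 and COL12A1 were called whichever pig was left out. COL6A3 was called in 25 of the 26 fits and COL1A2 in 23, failing without Creole TN pig 2, F1 TN pig 1 or LW TN pig 4. COL8A2 was called in 22, failing without Creole TN pig 2, F1 TN pig 3, F1 HS pig 3 or LW TN pig 2, while COL3A1 and COL14A1 were called in 10 fits each. Each of the 5 slides held pigs of both temperatures, in differing mixes of breeds. After subtraction of the breed means, the median HS minus TN difference of the 31 genes on these slides was 0.25, 0.12, 0.29, 0.10 and 0.21. The number of positive genes on the same slides was 20, 22, 24, 19 and 25 of 31. With slide as a fixed block, 10 genes were called.

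Creole TN pig 2 stood apart over the collagens as a whole. Averaged over the 31 genes, its level lay 0.52 below the mean of all pigs, the lowest of the 26, whereas its type IV chains lay 0.19 above their mean. The highest were LW HS pigs 2, 3 and 4, at 0.53, 0.44 and 0.37. Fibroblast markers were lowest and highest in the same pigs, at -0.77 in Creole TN pig 2 and 0.48, 0.49 and 0.35 in these LW HS pigs.

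**Figure D4:**
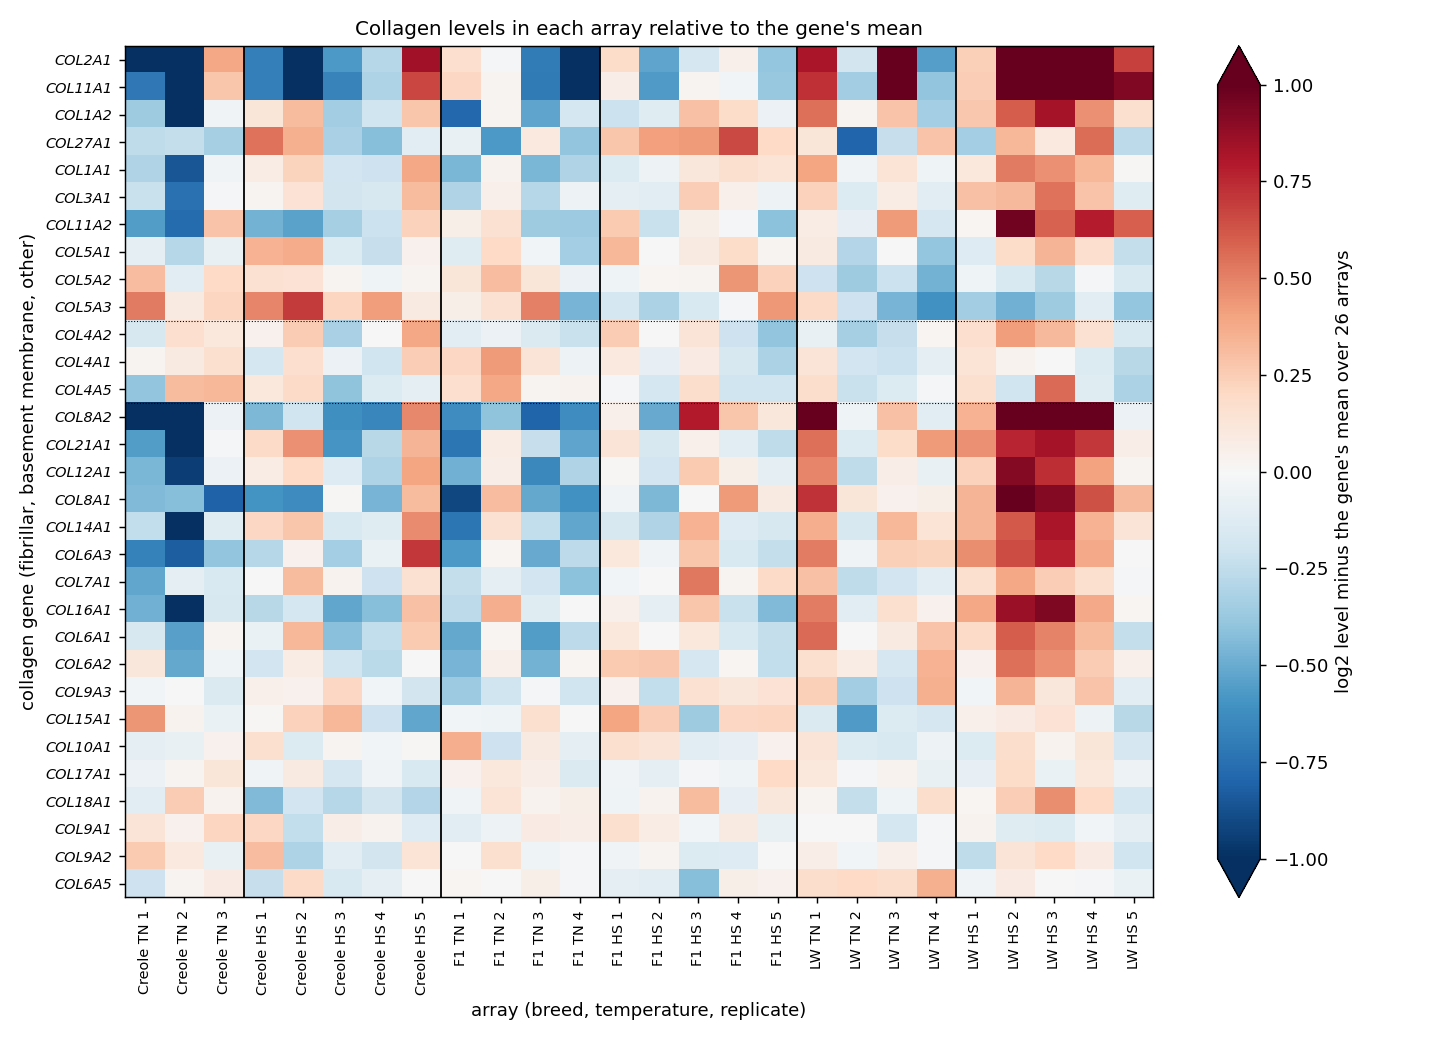
Level of each collagen gene on each of the 26 arrays minus the mean of the gene over the arrays (log2, colour scale clipped at -1 and 1), with fibrillar, basement membrane and other chains from top to bottom. Most fibrillar and other chains are low in Creole TN pig 2 and high in LW HS pigs 2, 3 and 4, and COL5A2, COL5A3 and the type IV chains do not follow this order.

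Pairs of chains, of the same or of different molecules, were compared among pigs of the same group. Of 6 pairs compared after subtraction of the group means (26 pigs), COL1A1 and COL1A2 had r = 0.92 and rho = 0.90, and COL1A1 and COL3A1 had r = 0.90 and rho = 0.89. The smallest permutation p that 100000 resamples could give was found for both pairs (1e-05, adjusted 2e-05 for r). COL6A1 had r = 0.84 with COL6A3 (rho = 0.87) and r = 0.73 with COL6A2 (rho = 0.72). COL4A1 and COL4A2 had r = 0.73 and rho = 0.80 within groups. COL5A1 and COL5A2 were the loosest pair (r = 0.42, rho = 0.45, permutation p = 0.0356 and 0.0238, the adjusted values being the same). Without the 2 pigs farthest from the median, r was 0.88, 0.87, 0.80, 0.75, 0.72 and 0.40 for COL1A1 with COL1A2, COL1A1 with COL3A1, COL6A1 with COL6A3, COL6A1 with COL6A2, the type IV pair and the type V pair. Within the slides of 6 and 7 arrays, r was 0.98 and 0.97 for COL1A1 with COL1A2 and 0.62 and 0.30 for the type IV pair. For the type V pair it was 0.48 and 0.80, so on the slide of 7 arrays the type IV pair was the looser of these pairs.

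The machinery around the collagens was examined with lists of genes. Of 17 tested genes for folding and secretion, 2 were called higher in HS and none lower. This share is near the 12.6% of all genes called in either direction, of which 4.91% were higher and 7.68% lower. They were P4HA2, a subunit of prolyl 4-hydroxylase (0.55 ± 0.12, adjusted p = 0.00424), and PPIB, a prolyl isomerase (0.19 ± 0.06, adjusted p = 0.027). SERPINH1, the collagen chaperone HSP47, had a difference of 0.19 ± 0.10 (adjusted p = 0.231). The median of this list was 0.15, and the mean level of its genes was 0.17 higher in HS (permutation p = 0.00182, adjusted 0.00728 over 16 lists). Of 17 tested genes for propeptide removal, assembly and crosslinking, 4 were higher and 2 lower. The mean level of this list was 0.15 higher, which did not pass after adjustment (permutation p = 0.0166, adjusted 0.0531). Both enhancers of procollagen C-proteinase rose, PCOLCE by 0.35 ± 0.11 (adjusted p = 0.0358) and PCOLCE2 by 0.56 ± 0.15 (adjusted p = 0.0177). Decorin (DCN), which binds fibrils, rose by 0.35 ± 0.10 (adjusted p = 0.0218) and fibronectin (FN1) by 0.38 ± 0.12 (adjusted p = 0.0436). The 2 that fell were ADAMTS2, the procollagen N-proteinase (-0.25 ± 0.08, adjusted p = 0.0408), and LOXL2, a crosslinking oxidase (-0.34 ± 0.11, adjusted p = 0.0496).

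Of 10 tested genes for collagen breakdown, MRC2 was called, an endocytic receptor for collagen (0.38 ± 0.12, adjusted p = 0.0381). Of 10 collagen receptors, DDR1 was called (0.42 ± 0.12, adjusted p = 0.0179). Of 17 genes of transforming growth factor beta signalling, its target TGFBI was called (0.35 ± 0.12, adjusted p = 0.0492), and the list had a median of 0.01. Of 10 other basement membrane genes, LAMA5, a laminin chain, was called (0.19 ± 0.06, adjusted p = 0.0363). All of these calls were higher in HS. The share called in each of these 4 lists was below the 12.6% of all genes called in either direction. It was above the 4.91% of all genes called higher. The mean level of the breakdown list was 0.105 higher (permutation p = 0.0227, adjusted 0.0605).

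Markers of cell types were examined in the same way. Their counts of called genes stand against the 12.6% called over all genes (4.91% higher and 7.68% lower). The share of fibroblast markers called in either direction lies near that 12.6%. All 13 tested fibroblast markers other than collagens (of 14) had a positive difference, with a median of 0.24 on the log2 scale, and 2 were called, PI16 (0.66 ± 0.14, adjusted p = 0.00344) and DCN. Their mean level per gene ran from -0.77 to 0.14 in TN and from -0.18 to 0.49 in HS pigs, relative to the mean of all pigs, and was 0.28 higher in HS (permutation p = 0.00147, adjusted 0.00728). With this level as a covariate, no collagen gene was called (0 of 31, all with limma), the median difference of the 31 genes was -0.006, and 638 probes of the whole array were called instead of 5447. Of 8 Schwann cell markers and 10 red blood cell markers, 7 of each list were tested. Schwann cell markers ran from -0.80 to 0.10 in TN and from -0.30 to 0.87 in HS, with 4 called higher, and their mean level was 0.59 higher in HS (permutation p = 3e-05, adjusted 0.00048). Red blood cell markers ran from 0.05 to 0.39 in TN and from -0.44 to 0.23 in HS, with 2 called lower, and their mean level differed by -0.27 (permutation p = 4e-04, adjusted 0.0032). With the red blood cell level as a covariate, again 0 of 31 collagen genes were called, with a median difference of 0.15, and 115 probes of the whole array were called instead of 5447. Both covariates themselves differed between HS and TN, and the fibroblast level was lowest and highest in the same pigs as the collagens. The fits with a covariate therefore cannot separate the part of the markers from that of temperature. The part of these markers in the collagen differences was not tested. Of the endothelial markers 2 of 8 were lower (CDH5 and FLT1), of the mural markers 1 of 8 (RGS5), and of the adipocyte markers 2 of 10 were lower and ADIPOQ was higher. The mural markers as a list had 6 of 8 positive differences and a median of 0.19. None of 9 macrophage, 9 skeletal muscle, 3 keratinocyte and 3 cartilage and bone markers was called. Positive differences were found for 8 of the macrophage (median 0.16), all 9 skeletal muscle (median 0.57), all 3 keratinocyte (median 0.87) and 2 of the cartilage and bone markers (median 0.02). Between LW and Creole the skeletal muscle markers had a median of -0.92, with none called.

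The same chains were then compared between LW and Creole pigs over both temperatures. Of 31 genes, 16 (51.6%) were differentially expressed, 14 higher and 2 lower in LW. Over all genes tested, 15.3% were called, 6.68% higher and 8.6% lower. Among probes, 49 of 110 (44.5%) were called, 45 higher and 4 lower, against 14.3% of all probes (6.89% higher and 7.42% lower). The called genes were 7 of the 10 fibrillar chains and 9 of the 18 other chains, and none of the 3 basement membrane chains, whose differences ranged from -0.10 to -0.01. The median over the 31 genes was 0.23, against -0.008 for all genes. This comparison shares its arrays with that of HS and TN, so the same pigs carry both.

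The largest breed differences were those of COL2A1 and COL11A1, chains of cartilage fibrils. COL2A1 (chr5:78350131-78380893), with 1 probe, had levels with a lowest value, median and highest value of 5.65, 6.96 and 8.43 in 8 Creole, 6.45, 7.43 and 7.77 in 9 F1 and 7.04, 8.41 and 9.64 in 9 LW pigs. The difference of LW from Creole was 1.37 ± 0.32 (adjusted p = 0.00639), and 4 of 9 LW pigs lay above all Creole pigs. COL11A1 (chr4:115638381-115841679) had 7.24, 8.41 and 9.74 for Creole, 8.07, 9.06 and 9.29 for F1 and 8.69, 10.01 and 10.85 for LW pigs. It differed by 1.37 ± 0.30 (adjusted p = 0.00426), with 6 of 9 LW pigs above all Creole pigs. All 6 COL11A1 probes were positive and 5 were called, among them the probe printed above (0.81 ± 0.18, adjusted p = 0.00437), but not the opposite-strand probe (0.15, adjusted p = 0.171). COL11A2 differed by 0.67 ± 0.16 (adjusted p = 0.00643) on the probe printed above.

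In COL2A1 the TN and HS means were 6.69 ± 1.18 and 7.24 ± 0.72 for Creole, 7.17 ± 0.61 and 7.42 ± 0.29 for F1, and 7.87 ± 0.77 and 8.76 ± 0.76 for LW pigs. In COL11A1 they were 8.32 ± 1.06 and 8.63 ± 0.72 for Creole, 8.71 ± 0.58 and 8.90 ± 0.28 for F1, and 9.37 ± 0.78 and 10.24 ± 0.62 for LW pigs. For COL11A2 they were 6.27 ± 0.56 and 6.35 ± 0.31 for Creole, 6.49 ± 0.27 and 6.55 ± 0.26 for F1, and 6.68 ± 0.26 and 7.21 ± 0.35 for LW pigs. In all 3 genes the LW HS group had the highest mean. Of the 3 cartilage and bone markers tested, 2 were called higher in LW (against 6.68% of all genes). BGLAP was not called (0.155, limma adjusted p = 0.459). Whether these markers varied together with the chains among pigs was not tested. Aggrecan (ACAN) was 1.105 higher (adjusted p = 0.00121) and COMP 1.56 higher in LW (adjusted p = 0.000299), and the 3 cartilage and bone markers tested of 8 had mean levels per gene from -0.85 to 0.25 in Creole and from -0.08 to 1.17 in LW. The part of these markers in the result was not tested.

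Both chains of the hexagonal networks were higher in LW. COL8A1 (chr13:159216138-159374718) had levels of 10.45, 10.80 and 11.57 (lowest, median, highest) in Creole and 11.30, 11.60 and 12.84 in LW. Its difference was 0.94 ± 0.18 (adjusted p = 0.00185), 6 of 9 LW pigs lay above all Creole pigs, and all 4 probes were called. COL8A2 ran over 6.93, 7.96 and 8.98 in Creole and 8.38, 8.84 and 10.47 in LW, a difference of 1.20 ± 0.25 (adjusted p = 0.00269). For COL8A1 the TN and HS means were 10.70 ± 0.22 and 10.99 ± 0.42 for Creole, 10.83 ± 0.52 and 11.26 ± 0.31 for F1, and 11.49 ± 0.33 and 12.02 ± 0.52 for LW pigs.

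Of the fibril-associated chains, COL16A1 (chr6:88177798-88243718) differed most clearly, with 13.363, 14.003 and 14.652 (lowest, median, highest) in Creole and 14.25, 14.73 and 15.29 in LW. Its difference was 0.71 ± 0.15 (adjusted p = 0.00322), and its TN and HS means were 13.81 ± 0.42 and 14.13 ± 0.32 for Creole, 14.35 ± 0.27 and 14.27 ± 0.27 for F1, and 14.51 ± 0.26 and 14.87 ± 0.38 for LW pigs. COL21A1 differed by 0.72 ± 0.18 (adjusted p = 0.0109), although 1 of its 4 probes was slightly negative (-0.08) and with the mean of its probes COL21A1 was not called (0.30, adjusted p = 0.144). The COL21A1 means were 9.39 ± 0.83 and 10.16 ± 0.44 for Creole, 9.78 ± 0.35 and 10.06 ± 0.15 for F1, and 10.39 ± 0.30 and 10.70 ± 0.31 for LW pigs. COL12A1 (0.46 ± 0.14, adjusted p = 0.0257) and COL14A1 (0.50 ± 0.17, adjusted p = 0.0441) were called in this comparison too, and all 12 COL14A1 probes were positive with 9 called. The COL14A1 call was lost with processed signals scaled to the 75th percentile and without a filter on dim probes.

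The 3 classical chains of type VI collagen were called higher in LW, COL6A1 on 1 of its 4 probes. COL6A3 differed by 0.61 ± 0.14 (adjusted p = 0.00454), with all 10 probes positive and 9 called. COL6A1 differed by 0.37 ± 0.12 (adjusted p = 0.0457) and COL6A2 by 0.34 ± 0.11 (adjusted p = 0.04). The COL6A1 call was lost with processed signals scaled to the 75th percentile and without a filter on dim probes. The COL6A2 call was lost without that filter and with array weights. For type I collagen, COL1A1 differed by 0.34 ± 0.11 (adjusted p = 0.0373) and COL1A2 by 0.53 ± 0.15 (adjusted p = 0.0228). COL3A1, at 0.27 ± 0.10, lay outside the threshold (adjusted p = 0.0632). COL7A1 had a breed difference of 0.15 ± 0.09 (adjusted p = 0.276).

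COL5A3 and COL5A2, chains of type V collagen, were lower in LW. COL5A3 (chr2:68828197-68869914) had levels of 16.30, 15.87 and 15.99 in Creole TN and 16.26, 16.48, 15.99, 16.20 and 15.87 in Creole HS pigs. In LW the levels were 15.96, 15.57, 15.31 and 15.17 in TN and 15.43, 15.29, 15.42, 15.68 and 15.39 in HS pigs, and 8 of 9 LW pigs lay below all Creole pigs. The difference was -0.65 ± 0.13 (adjusted p = 0.00176), with the F1 means between at 15.84 ± 0.40 and 15.73 ± 0.29. A dimmer probe of COL5A3 gave 0.08 (adjusted p = 0.452). COL5A2 (chr15:93611856-93981131), the neighbour of COL3A1 on the chromosome, was -0.29 ± 0.07 (adjusted p = 0.00963), and 7 of 9 LW pigs lay below all Creole pigs. Its TN and HS means were 15.23 ± 0.22 and 15.16 ± 0.08 for Creole, 15.22 ± 0.15 and 15.23 ± 0.20 for F1, and 14.78 ± 0.12 and 14.97 ± 0.10 for LW pigs. Of its 6 probes, 2 were called lower and 2 were positive without passing the threshold, and with the mean of its probes COL5A2 was not called (-0.10, adjusted p = 0.378). COL5A1 did not differ beyond its error (-0.01 ± 0.10).

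The breed comparison varied between slides. Within the 4 slides that held both breeds, the median LW minus Creole difference of the 31 genes was 0.28, 0.50, 0.01 and -0.24. The number of positive genes was 24, 23, 16 and 9. These slide differences were not adjusted for temperature. The last of these slides held 2 LW TN pigs and 1 Creole pig, an HS pig with the highest mean collagen level among Creole pigs. The slide with the largest median, 0.50, also held 1 Creole pig, Creole TN pig 2, whose mean collagen level was the lowest of all. Its 3 LW pigs were HS pigs 3 and 4 and TN pig 1. The differences on both of these slides thus mix breed with temperature. On the slide with the median of -0.24, COL11A1 was -0.29 and COL8A1 -0.27, whereas COL5A3 was negative on all 4 slides (-1.03, -0.18, -0.58 and -0.62). With slide as a fixed block, 12 genes were called, and COL1A1, COL6A1, COL12A1 and COL14A1 were not. Whichever pig was left out, 10 genes stayed called on their representative probes (COL2A1, COL5A2, COL5A3, COL6A3, COL8A1, COL8A2, COL11A1, COL11A2, COL16A1 and COL21A1). With the mean of all probes of a gene, COL5A2, COL6A1, COL12A1 and COL21A1 lost their calls. Of the 26 fits that left out 1 pig, COL6A1 was called in 13, COL14A1 in 15, COL1A1 in 16, COL6A2 in 17, COL12A1 in 21 and COL1A2 in 24, and each of them failed without Creole TN pig 2. Of the 13 fibroblast markers 3 were called higher in LW (against 6.68% of all genes), with a median of 0.32, and the mean level per gene ran from -0.77 to 0.29 in Creole and from -0.21 to 0.49 in LW. With that level as a covariate, COL5A2 and COL5A3 were the only collagen genes called, and over the whole array 1095 probes were called instead of 6399. Because that level was lowest and highest in the same pigs as the collagens, this fit cannot separate its part from that of breed. The part of the fibroblast markers in the breed difference was not tested.

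The cross was compared with the mean of its parental breeds. No collagen gene was called (0 of 31 in limma, with 2 at an unadjusted p under 0.05, against 8.46% of all genes), and 3 of all probes were called (0.00671%). The 2 genes were COL5A2 (0.19 ± 0.06) and COL6A1 (-0.24 ± 0.10), and 21 of the 31 differences were negative.

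Within each breed, no collagen gene passed the threshold for HS minus TN in limma (0 of 31 in each), while 9 genes in Creole and 5 each in F1 and LW pigs had an unadjusted p under 0.05, against 11.3%, 15.9% and 18.1% of all genes. Over all genes tested, 0.0762% were called for Creole, 0.429% for F1 and 1.42% for LW pigs. The median differences of the 31 genes were 0.20, 0.20 and 0.22, with 22, 23 and 27 positive genes. The basement membrane chains had a median of -0.10 for Creole, -0.24 for F1 and 0.07 for LW pigs.

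No chain passed the threshold for a breed by temperature interaction (0 of 31 in limma, 1 at an unadjusted p under 0.05, against 5.53% of all genes), and of all probes 0.00224% did. The gene with the smallest interaction p was COL18A1 (chr13:207907835-207984082), whose limma adjusted p was 0.897. It is shown only because this p was the smallest of the 31. Its levels were 13.35, 13.71 and 13.50 in Creole TN and 13.02, 13.27, 13.17, 13.27 and 13.16 in Creole HS pigs. In F1 the TN and HS means of COL18A1 were 13.51 ± 0.07 and 13.53 ± 0.16, and in LW they were 13.44 ± 0.17 and 13.61 ± 0.24. The HS minus TN differences were -0.34 for Creole, 0.02 for F1 and 0.17 for LW pigs.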

How the data were processed

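SCAT RNA of 26 pigs was hybridised to Agilent porcine arrays, 1 pig per array. For every spot, the deposited scanner output gives a median intensity, neither background-corrected nor normalized, a processed intensity and flags for dim, saturated and non-uniform spots, written by Agilent Feature Extraction 10.10.1.1 per the labels. The authors' quantile-normalized log2 table, with 44104 probes, served as an alternative. Here, median intensities were quantile-normalized with limma 3.58.1 in R 4.3.3 and log2-transformed, keeping probes that were well above background on 8 or more arrays. Non-uniform spots (0 to 16 per array) were left out. Genes were named from the file annotation through RefSeq tables of Sscrofa11.1. Probes were not realigned. HS minus TN was fitted with breed, and the breed contrasts with temperature, as fixed effects (lmFit, eBayes with a trend). Within-breed changes and the interaction came from 6 group means. P-values were adjusted over 44703 probes (Benjamini-Hochberg, threshold 0.05). The authors' random effects of pen, slaughter, father and mother are not in the labels and were left out. Scores of 16 marker and pathway lists were tested by permuting temperatures within breeds (100000 resamples, two-sided). Values were given in every group for members past the threshold for HS minus TN or LW minus Creole, for COL1A1, COL1A2, COL3A1, COL4A1, COL4A2, COL6A1, COL6A2 and COL6A3, and for the smallest interaction p. Genes of other lists were named when past the threshold, at most 4 per list. The exception was the list for propeptide removal, assembly and crosslinking, where all 6 called genes were named. ADIPOQ, SERPINH1, ACAN, BGLAP and COMP were named after their values were seen. The members and lists were chosen with earlier results of these data known. The fits were tested on simulated data. The number of arrays limits the precision. Figures were drawn with matplotlib 3.10.9.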

Additional observations from a re-analysis of the deposited data

Results flagged for a closer look

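Within each group of 4 or 5 pigs, the highest and lowest values of each collagen gene were compared with the others of the group by Dixon's ratio, which chance passes in about 1 of 20 groups. Of 155 groups tested, 8 passed. COL14A1 was 14.054 in F1 HS pig 3 against at most 13.58 in the others of its group, and COL15A1 was 13.814 in the same pig against at least 14.383. In LW TN pigs, COL15A1 was 13.607 in pig 2 against at least 14.006, COL6A5 was 8.102 in pig 4 against at most 7.94, COL8A1 was 11.981 in pig 1 against at most 11.38, and COL9A1 was 5.679 in pig 3 against at least 5.846. In F1 HS pigs, COL17A1 was 6.851 in pig 5 against at most 6.631, and COL9A3 was 10.573 in pig 2 against at least 10.864.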

How the results depend on the processing

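Of 13 alternatives that kept all arrays, normexp background correction, the series matrix values, both other filters on dim probes, slide as a fixed or random block, array weights, no intensity trend and the mean of all probes of a gene kept each count of called collagens within 1.5 times its value, though single genes such as COL14A1 lost their call in some of them. The count of genes for HS minus TN was 4 (COL7A1, COL8A2 and COL12A1 higher and COL4A1 lower, out of 31) with processed signals scaled to the 75th percentile and 1 (COL7A1) without breed in the model, and that of probes was 17 (12 higher and 5 lower) and 4. For LW minus Creole it was 10 without temperature in the model. With the red blood cell level as a covariate, 0 genes and 0 probes were called for HS minus TN, and with the fibroblast level 0 genes and 0 probes for HS minus TN and 2 genes for LW minus Creole. COL14A1 was then -0.014 and COL3A1 -0.006 for HS minus TN. The cause was not tested. When arrays were omitted one at a time, the counts ran from 3 to 12 genes and from 7 to 36 probes for HS minus TN, and from 11 to 17 genes for LW minus Creole, and were 0 for the cross, the within-breed changes and the interaction. The count of probes, 27 with all arrays, was 7 without Creole TN pig 2, 16 without Creole TN pig 1, 14 without LW HS pig 2, 16 without LW HS pig 3, 10 without F1 TN pig 1, 15 without F1 HS pig 3, 14 without F1 TN pig 3 and 11 without LW TN pig 2. No paired analysis was possible because the labels carry no replicate numbers that link pigs across groups.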
